A study of Mus musculus with 28 samples.

Results

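Gene expression in the CA1 field of the hippocampus was compared between CamkdeltaC transgenic mice that drank vorinostat and wildtype littermates that drank vehicle. Groups were taken from the sample titles, which give 9 transgenic vorinostat and 10 wildtype vehicle libraries, 19 of the 28 libraries of the study. The other 9 libraries, from transgenic mice given vehicle, entered the same fit, and their values are given for some genes and lists. All 3 groups were 3 months old. Treatment in the drinking water began at 2 months of age and lasted 4 weeks. Males and females were used, and the labels do not give which library came from which sex. As background, mice that carry this kinase, an isoform of calcium/calmodulin-dependent kinase II, serve as a heart failure model because the transgene is driven in heart muscle, and its level in brain is therefore no check of genotype. Vorinostat, also called SAHA, inhibits histone deacetylases. The groups differ in both the transgene and the drug, and vorinostat-treated wildtype animals were not analysed here, which means that the parts of the transgene and of the drug in any difference cannot be told apart. Whether libraries were made from separate animals is not in the labels, and p-values therefore measure only the spread between these samples, which may be technical.

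Histone deacetylases remove acetyl groups from histone tails, a step that goes with tighter chromatin and lower transcription, and their inhibitors raise acetylation. In the hippocampus, histone acetylation is known for its part in memory formation, and CA1 pyramidal neurons carry the output of the hippocampal circuit. Alas2, which starts heme synthesis, and the hemoglobin chain genes are made in red blood cell precursors and their transcripts persist in young red cells. Adm encodes adrenomedullin, a peptide that widens blood vessels and is induced by low oxygen.

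The promoters of Adm and Alas2 are shown because these genes had the smallest p-values, and that of Hbb-bt because it had the largest log2 fold change of the erythroid list. Each runs over the 250 bases before the RefSeq start on GRCm38.p6, 5′ to 3′ in the direction of the gene. RefSeq and GENCODE place these starts differently, and the GENCODE starts of Alas2 and Hbb-bt given below lie inside these windows. Capitals mark matches to the motifs searched on both strands, and a match on the opposite strand is written as its reverse complement. Adm lies at chr7:110627407-110627656 on the plus strand, Alas2 at chrX:150547167-150547416 on the plus strand and Hbb-bt at chr7:103813924-103814173 on the minus strand.
Adm: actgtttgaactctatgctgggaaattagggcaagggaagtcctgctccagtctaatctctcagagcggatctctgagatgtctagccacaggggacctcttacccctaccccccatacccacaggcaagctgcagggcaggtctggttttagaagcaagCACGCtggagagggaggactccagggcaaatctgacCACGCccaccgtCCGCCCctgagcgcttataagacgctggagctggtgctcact
Alas2: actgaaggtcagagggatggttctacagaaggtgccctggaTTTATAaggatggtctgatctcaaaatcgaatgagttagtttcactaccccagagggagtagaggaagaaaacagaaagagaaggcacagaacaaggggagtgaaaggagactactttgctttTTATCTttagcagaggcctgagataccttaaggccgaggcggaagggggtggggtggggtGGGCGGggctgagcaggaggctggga
Hbb-bt: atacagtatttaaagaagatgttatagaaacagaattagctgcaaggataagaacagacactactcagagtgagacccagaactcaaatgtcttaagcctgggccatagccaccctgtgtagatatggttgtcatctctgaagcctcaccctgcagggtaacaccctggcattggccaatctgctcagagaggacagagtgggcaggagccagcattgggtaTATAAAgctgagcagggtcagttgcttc
In the Adm promoter the hypoxia response core GCGTG was found on the opposite strand 90 and 54 bases before the start, with a GC box (GGGCGG) 42 bases before it. The core, searched as ACGTG or GCGTG, is held by 38.6% of 32851 promoters of this length and the GC box by 32.7%. The Alas2 promoter held AGATAA, a motif of GATA factors, on the opposite strand 86 bases before the start. It also held TATAAA on the opposite strand 209 bases before and a GC box 26 bases before the start. AGATAA or TGATAA is in 16.6% of promoters, and the TATA box TATAAA, which the Hbb-bt promoter held 28 bases before its start, in 12.4%. The exact string CCACACCC, taken as the CACCC box and found in 3.2% of promoters, had no match in these 3 windows. The shorter string CACCC, which the Hbb-bt window contains, was not searched for. A match is a string of letters and was not tested as a binding site.

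The 28 libraries held 20230085 to 33191857 counts. Totals were 20319545 to 27552821 in the 9 vorinostat and 20230085 to 33191857 in the 10 wildtype libraries (two-sided exact permutation p = 0.68 for the difference of means). All 10 CA1 pyramidal markers looked for passed the low-count filter, and their summed level was 1312 to 1837 CPM (a gene's counts scaled to a TMM-adjusted library total of fixed size) in vorinostat and 1438 to 1897 CPM in wildtype libraries. A set of 4 libraries stood apart, with mitochondrial genes at 6.39 to 7.48% of counts in vorinostat 6, 7 and 9 and at 6.41% in wildtype 2. The other 24 libraries held 2.84 to 4.11%. The same 4 libraries lay at 29.0 to 49.5 on the first principal component, against -17.1 to 3.83 for the rest. Over whole groups the mitochondrial share was 4.75 ± 1.68% with vorinostat (SD, n = 9) and 4.00 ± 0.915% in wildtype (SD, n = 10; two-sided exact permutation p = 0.235). Since 3 of 9 vorinostat and 1 of 10 wildtype libraries carry this feature, values below are also given without them, with 6 vorinostat and 9 wildtype libraries left. Xist, a transcript of female cells, was above 100 CPM in 5 of 9 vorinostat, 3 of 9 transgenic vehicle and 6 of 10 wildtype libraries. In the others it was at most 2.05 CPM.

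**Figure D1:**
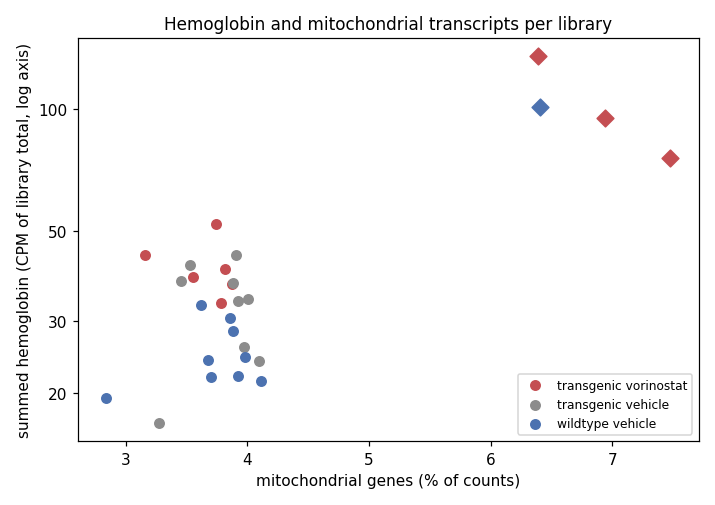
Summed hemoglobin level of each library (CPM of the library total, log axis) against the share of counts from mitochondrial genes (%), with 9 vorinostat, 9 transgenic vehicle and 10 wildtype libraries as points. Diamonds are the 4 libraries with a mitochondrial share of 6.39 to 7.48%; among the others, all 6 vorinostat libraries (33.4 to 52.1 CPM) lie above all 9 wildtype libraries (19.5 to 33.0 CPM).

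No gene passed the threshold between vorinostat-treated transgenic and wildtype libraries. In edgeR's quasi-likelihood test 0 of 17009 genes (0%) had a Benjamini-Hochberg adjusted p under 0.05, and the smallest was 0.384. The count was also 0 by DESeq2, with 2406 genes at an unadjusted p under 0.05, and by limma voom, with 2268 such genes. The edgeR test put 2141 genes (12.6%) at an unadjusted p under 0.05, against a chance expectation of 850.4. Of these, 1169 (6.87% of all genes) were higher and 972 (5.71%) lower with vorinostat. Log2 fold changes of vorinostat over wildtype were small, with 87.2% of genes under 0.2 and 99.3% under 0.5 in size, at a median standard error of 0.0864. Only 113 genes reached 0.5 and 4 reached 1, and for 0 genes (0%) did the CPM of the groups not overlap.

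The excess of small p-values was present with the 4 libraries of high mitochondrial share and absent without them. Without them 721 of 17292 genes (4.17%) had an unadjusted p under 0.05, against a chance expectation of 864.6, with 335 higher and 386 lower with vorinostat. Again 0 genes passed, and the smallest edgeR adjusted p was 0.158, that of Alas2. With the mitochondrial share as a covariate the count was 1253, and with Xist as a covariate it was 2275. Leaving out vorinostat 6, 7 or 9 alone gave 1251, 1066 and 1294 genes, and leaving out wildtype 2 gave 3765 genes and 3 calls, named below.

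Of the 10 named genes with the smallest p, 9 are described here, all higher with vorinostat at an edgeR adjusted p of 0.384. Adm had the smallest p of all genes tested (4.9e-05; ENSMUSG00000030790, chr7:110627661-110629820, plus strand, GRCm38). Its level was 1.46 CPM at the lowest, 1.60 at the median and 1.98 at the highest in vorinostat libraries, against 0.754, 1.06 and 1.66 CPM in wildtype. All 9 vorinostat libraries lay above the wildtype median, and the groups overlapped through the highest wildtype library. The log2 fold change was 0.58 (SE 0.123), and 0.58 also without the 4 libraries. In transgenic vehicle libraries Adm was at 1.38 ± 0.235 CPM (SD, n = 9), 0.34 (SE 0.124) above wildtype. Adm passed without wildtype 5, at 0.68 (edgeR adjusted p = 0.0184). The level of Adm is low and its gene overlaps Gm28863, so its counts are uncertain.

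Alas2 (ENSMUSG00000025270, chrX:150547375-150570638, plus strand) was at 2.90, 3.20 and 6.34 CPM as lowest, median and highest in vorinostat libraries, against 1.36, 1.85 and 4.80 CPM in wildtype. All 9 vorinostat libraries were above the wildtype median, and 1 wildtype library, wildtype 2, lay among the highest vorinostat ones. The log2 fold change was 0.89 (SE 0.205), and 0.90 without the 4 libraries. Transgenic vehicle libraries, at 2.20 ± 0.557 CPM (SD, n = 9), differed from wildtype by 0.07 (SE 0.214), and by 0.29 (SE 0.155) without wildtype 2. The reads of Alas2 may be shared with the overlapping genes Apex2 and Mir3620, since the libraries do not keep the strand.

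The peptide transporter gene Slc15a2 (ENSMUSG00000022899, chr16:36750177-36784962, minus strand) averaged 42.4 ± 7.12 CPM with vorinostat (SD, n = 9) and 33.7 ± 4.31 CPM in wildtype (SD, n = 10), a log2 fold change of 0.33 (SE 0.0807). Its vorinostat mean was 51.2 CPM in the 3 libraries of high mitochondrial share and 37.9 CPM in the other 6, and without the 4 libraries the fold change was 0.20. Abca9, a lipid transporter gene of the ABC family, averaged 12.1 ± 1.07 CPM with vorinostat and 9.88 ± 1.41 CPM in wildtype, at 0.30 (SE 0.0743) and at 0.24 without the 4 libraries. Slc35g2, a solute carrier gene, was at 0.31 (SE 0.0824) and 0.23 without them. Transgenic vehicle libraries, set against the same wildtype libraries without the 4, were also higher for Slc15a2 and Slc35g2. Their values were 0.25 (SE 0.0593) for Slc15a2, 0.15 (SE 0.0548) for Slc35g2 and 0.06 for Abca9, less than its SE of 0.0761.

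The remaining 4 genes were smaller differences of well-measured transcripts that shrank further without the 4 libraries. Zfyve16, which encodes an endosomal FYVE-domain protein, was at 0.28 with all libraries and 0.16 without the 4, and the zinc finger gene Zfp607b at 0.22 and 0.14. Tmem260, a membrane protein gene, was at 0.20 and 0.16, and Desi2, which encodes a desumoylating isopeptidase, at 0.20 and 0.11. For transgenic vehicle over wildtype without the 4, Zfyve16 was at 0.11, Zfp607b at 0.13, Tmem260 at 0.12 and Desi2 at 0.05. For 8 of the 9 genes all 9 vorinostat libraries lay above the wildtype median, and for Desi2 8 of 9 did. That regularity follows from the choice by smallest p. Most genes with such a count below were also singled out by a small p or with their values known, which favours it there too. The share of all genes with all 9 vorinostat libraries on the same side of the wildtype median is not given here. Slc15a2 and Tmem260 also overlap predicted genes.

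**Figure D2:**
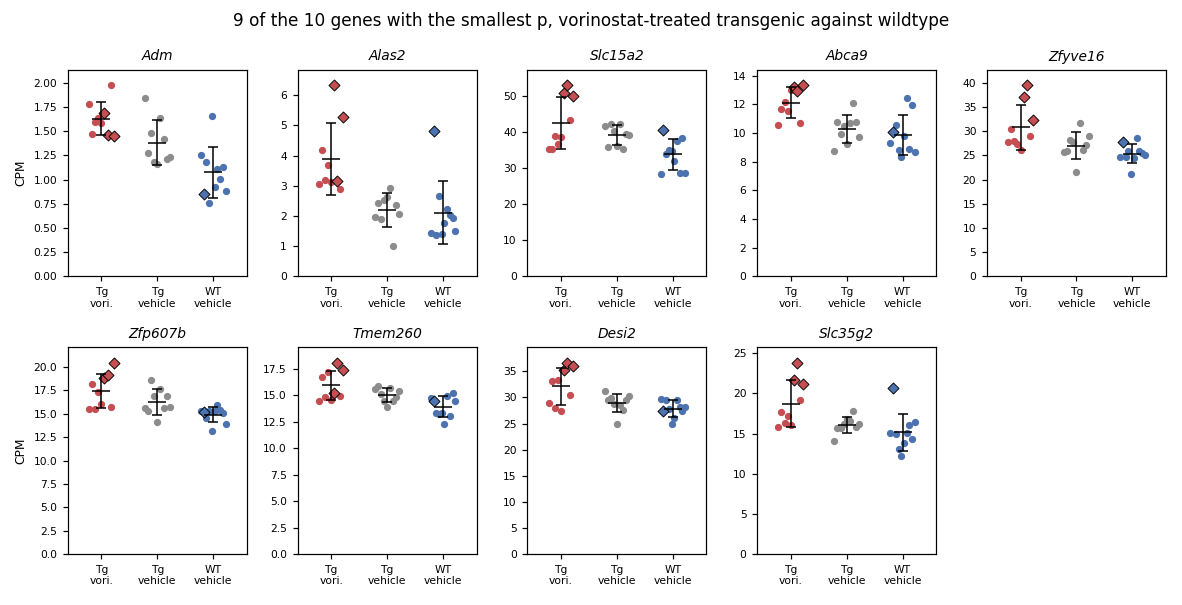
Level of 9 of the 10 genes with the smallest p (CPM), with each library as a point, in transgenic vorinostat (left), transgenic vehicle (middle) and wildtype vehicle (right) libraries; horizontal lines are the mean and bars the SD, and outlined diamonds mark the 4 libraries of high mitochondrial share. For Adm the vorinostat libraries span 1.46 to 1.98 CPM and the wildtype libraries 0.754 to 1.66 CPM.

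Erythroid genes had positive log2 fold changes of vorinostat over wildtype, both with and without the 4 libraries that stood apart, and none passed over all genes. All 4 tested of 5 listed members were positive and had an unadjusted p under 0.05, with a median log2 fold change of 0.89, against 0.0064 over all genes tested and 6.87% of all genes at such a p and higher. Without the 4 libraries the members were again all positive at an unadjusted p under 0.05 (1.94% of all genes were at such a p and higher), with a median of 0.76. For transgenic vehicle against wildtype, which shares the wildtype libraries, the median was 0.0088 in all libraries and 0.36 without the 4. There 4 of 4 members were positive, from 0.29 for Alas2 to 0.44 for Hba-a1. The vehicle value in all libraries therefore rests on wildtype 2.

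The beta-chain gene Hbb-bt (ENSMUSG00000073940, chr7:103812524-103813996, minus strand) was at 4.51, 6.39 and 16.6 CPM in vorinostat libraries (lowest, median, highest), against 2.31, 3.38 and 12.03 CPM in wildtype. Its log2 fold change was 0.96 (SE 0.274), and 0.79 without the 4 libraries. The other beta chain, Hbb-bs, averaged 37.3 ± 19.3 CPM with vorinostat and 19.995 ± 14.2 CPM in wildtype (0.90, SE 0.283, and 0.72 without the 4). The alpha chain Hba-a1 averaged 14.99 ± 8.91 CPM with vorinostat and 8.70 ± 7.53 CPM in wildtype (0.79, SE 0.32, and 0.65 without the 4). In each of the 3 chains the highest levels were those of the 4 libraries, and all 9 vorinostat libraries were above the wildtype median. Hba-a1 and Hbb-bs were named after their values were seen, and near-identical hemoglobin genes may share reads. Without wildtype 2, Alas2 (1.10), Hbb-bt (1.31) and Hbb-bs (1.26) passed over all genes, with edgeR adjusted p of 0.00895, 0.0162 and 0.0316.

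Summed hemoglobin, as CPM of the library total, was 33.4, 43.8 and 135 in vorinostat libraries (lowest, median, highest), against 16.9, 34.1 and 43.9 in transgenic vehicle and 19.5, 24.3 and 101 in wildtype libraries. The 4 libraries of high mitochondrial share held the highest values, at 75.9, 94.9 and 135 CPM for the vorinostat ones and 101 CPM for wildtype 2. With all 19 libraries the difference of means was 28.6 CPM and missed the threshold (vorinostat 61.3 ± 34.4 CPM, n = 9, wildtype 32.7 ± 24.5 CPM, n = 10, SD, two-sided exact permutation p = 0.0513). On a log2 scale the difference was 0.94 (two-sided exact permutation p = 0.00933). Among the libraries of lower mitochondrial share the groups did not overlap, with 40.9 ± 6.47 CPM in 6 vorinostat and 25.0 ± 4.61 CPM in 9 wildtype libraries (two-sided exact permutation p = 0.0002, the smallest these permutations can give). How many single genes also did not overlap in this subset was not counted. In the high stratum 1 wildtype library allows no test. Transgenic vehicle libraries, at 32.8 ± 8.82 CPM (SD, n = 9), differed from wildtype by 0.118 CPM in all libraries (two-sided exact permutation p = 0.997) and by 7.74 CPM without wildtype 2 (two-sided exact permutation p = 0.0352, and 0.0528 adjusted over 3 pairs of groups). Vorinostat libraries exceeded transgenic vehicle libraries by 28.5 CPM in all libraries (two-sided exact permutation p = 0.00769, adjusted 0.0231) and by 8.15 CPM without those of high mitochondrial share (two-sided exact permutation p = 0.0771, adjusted 0.0771). Over the same 3 pairs the adjusted p of vorinostat against wildtype was 0.0769 in all libraries and 0.0006 without the 4. In bulk tissue more cells of a type and more RNA per cell cannot be told apart.

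Markers of the pyramidal neurons of CA2, the field next to CA1, had negative log2 fold changes of vorinostat over wildtype, none of which passed over all genes. Of 8 listed markers 7 were tested, and 7 of 7 were negative, with a median log2 fold change of -0.29 and 3 members at an unadjusted p under 0.05 (5.71% of all genes were at such a p and lower). Without the 4 libraries 7 of 7 were negative, 4 at an unadjusted p under 0.05 (2.23% of all genes were at such a p and lower), with a median of -0.33. The summed level of the list was 168, 181 and 216 CPM in vorinostat libraries (lowest, median, highest) and 185, 216 and 277 CPM in wildtype, so the groups overlapped over much of their range. For transgenic vehicle against wildtype the median was 0.02, and -0.02 without the 4, where 3 of 7 members were positive. Members ran there from -0.16 (SE 0.0742) for Necab2 to 0.40 (SE 0.291) for Map3k15.

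Necab2, a neuronal calcium-binding protein gene (ENSMUSG00000031837, chr8:119446719-119472640, plus strand), led the list at 44.2, 64.4 and 76.7 CPM with vorinostat, against 60.5, 76.3 and 103 CPM in wildtype. Its log2 fold change was -0.32 (SE 0.0867), and -0.33 without the 4 libraries, and 8 of 9 vorinostat libraries lay below the wildtype median. Cacng5, an auxiliary subunit gene of AMPA receptors, was at -0.25 (SE 0.108) and Rgs14, a regulator of G-protein signalling, at -0.25 (SE 0.119), with -0.24 for each without the 4. Amigo2, a cell adhesion gene, was at -0.30 (SE 0.187), Ntf3, the neurotrophin-3 gene, at -0.32 (SE 0.253) and the kinase gene Map3k15 at -0.29 (SE 0.28). Pcp4, a regulator of calmodulin, was at -0.06 (SE 0.13) with all libraries, -0.34 without the 4 and 0.015 without wildtype 1, and at 0.12 in the authors' deposited table. Rgs14, Amigo2, Ntf3, Map3k15 and Pcp4 were named after their values were seen.

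**Figure D3:**
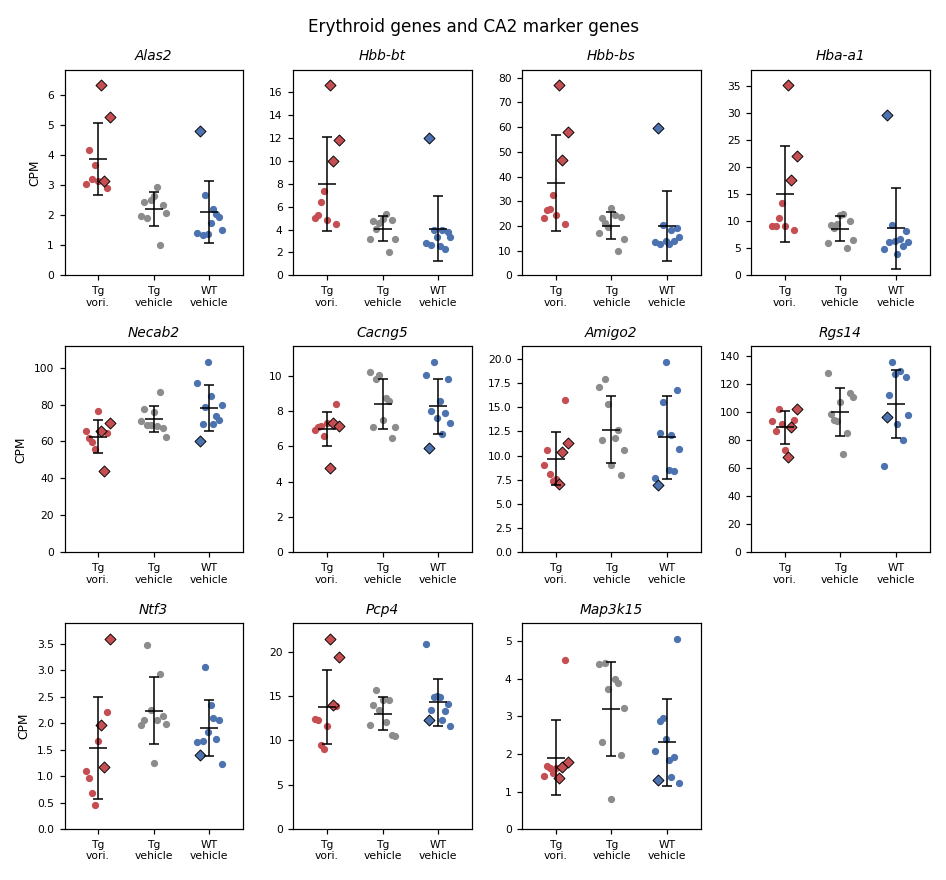
Level (CPM) of 4 erythroid genes and 7 CA2 marker genes in transgenic vorinostat (left), transgenic vehicle (middle) and wildtype vehicle (right) libraries, with each library as a point, the mean and SD as lines, and outlined diamonds for the 4 libraries of high mitochondrial share. Alas2 lies above the wildtype median of 1.85 CPM in all 9 vorinostat libraries, and Necab2 below the wildtype median of 76.3 CPM in 8 of 9.

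Markers of the other cell types that the dissected tissue could hold showed smaller or less regular differences, and none passed over all genes. CA1 markers were 5 positive and 5 negative of 10, with Ndst4, a heparan sulfate enzyme gene, at 0.29 (SE 0.105, and 0.26 without the 4) and Fibcd1 at -0.38 (SE 0.212, and -0.22 without the 4). CA3 markers were negative in 5 of 7, with the kainate receptor gene Grik4 at -0.22 (SE 0.0901, and -0.15 without the 4), and dentate granule markers in 4 of 8, with C1ql2 at -0.40 (SE 0.211, and -0.29 without the 4). The dentate median was -0.05 with all libraries and -0.18 without the 4. Thalamic markers were negative in 5 of 6 with a median of -0.15, led by the kinase gene Prkcd, at 9.25 ± 1.07 CPM with vorinostat and 12.2 ± 3.22 CPM in wildtype (-0.40, SE 0.111, and -0.44 without the 4). Prkcd was also below wildtype in transgenic vehicle libraries, at -0.25 (SE 0.11). Inhibitory neuron markers were negative in 10 of 13, with the GABA transporter of vesicles, Slc32a1, at -0.23 (SE 0.0902, and -0.10 without the 4), and in 12 of 13 without the 4 libraries, where their median was -0.08. Of these markers 1 was at an unadjusted p under 0.05 and lower in all libraries (5.71% of all genes). Without the 4 libraries 4 were (2.23% of all genes).

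Among non-neuronal markers, endothelial genes were positive in 7 of 10 with a median of 0.09. Itm2a was at 0.28 (SE 0.0812) and 0.13 without the 4 libraries. The organic anion transporter gene Slco1a4 was at 0.31 (SE 0.11) and at 0.04 without the 4, its vorinostat mean being 47.7 CPM in the 3 libraries of high mitochondrial share and 30.03 CPM in the other 6. Oligodendrocyte markers were positive in 11 of 12 with a median of 0.13, and in 6 of 12 without the 4 libraries, with Ermn, a myelin cytoskeleton gene, at 0.29 and 0.11. Gjb6, an astrocyte connexin, was at 0.18 and 0.02. Choroid plexus and meningeal markers spread widely within groups. Ttr, which encodes transthyretin, was at 1.66, 10.8 and 91.1 CPM with vorinostat and 1.74, 10.7 and 25.1 CPM in wildtype, and the choroid list summed to 8.47 to 107 CPM with vorinostat and 10.7 to 35.5 CPM in wildtype. Prlr, the prolactin receptor gene, was at -0.34 (SE 0.259, and -0.52 without the 4) and the collagen gene Col3a1 at 0.34 (SE 0.264, and 0.40 without the 4). Of 9 neutrophil and T cell markers 0 passed the low-count filter.

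The deacetylases that vorinostat acts on showed no regular difference from wildtype at the level of their own transcripts. Of 7 genes 3 were positive and 4 negative, with a median of -0.04, and 1 had an unadjusted p under 0.05 (12.6% of all genes). That was Hdac8, a class I deacetylase on the X chromosome, at 11.7, 12.5 and 14.8 CPM with vorinostat and 10.5, 11.4 and 13.1 CPM in wildtype, a log2 fold change of 0.18 (SE 0.0612) and 0.12 without the 4 libraries. All 9 vorinostat libraries lay above the wildtype median of Hdac8, and transgenic vehicle libraries were at 0.13 (SE 0.0611). Hdac2, the class I member known for restraining memory genes, was at 85.5 ± 12.9 CPM with vorinostat and 78.8 ± 7.55 CPM in wildtype (0.12, SE 0.0672, and 0.0064 without the 4). Hdac1 was at 0.04 (SE 0.0676, and -0.03 without the 4) and Hdac3 at -0.04 (SE 0.0357, and -0.03 without the 4). The tubulin deacetylase Hdac6 was at -0.12 (SE 0.08, and -0.0064 without the 4), the polyamine deacetylase Hdac10 at -0.13 (SE 0.0808, and -0.06 without the 4) and Hdac11 at -0.07 (SE 0.0438, and -0.01 without the 4). These signs are not firm, since with surrogate variables Hdac2, Hdac3, Hdac6, Hdac10 and Hdac11 reversed, and Hdac1 did so without the 4 libraries. The class IIa genes were negative in 4 of 4 with a median of -0.11, and in 3 of 4 without the 4 libraries. Hdac7 was at -0.24 (SE 0.126, and -0.10 without the 4) and Hdac5 at -0.13 (SE 0.0682, and -0.04 without the 4).

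Genes known to respond to deacetylase inhibitors in cultured cells were negative in 16 of 19, with a median of -0.06, and in the same number without the 4 libraries, with a median of -0.04. The list does not separate genes that inhibitors raise from genes that they lower, so its sign count is no measure of a response. The linker histone gene H1fx was at 11.04 ± 1.22 CPM with vorinostat and 12.8 ± 2.26 CPM in wildtype (-0.22, SE 0.0898, and -0.20 without the 4). It was the 1 member of that list at an unadjusted p under 0.05 (12.6% of all genes). Histone acetyltransferases were positive in 4 of 12, and in 8 of 12 without the 4. Kat2b, also called PCAF, was at 0.18 (SE 0.0624), with all 9 vorinostat libraries above the wildtype median, and at 0.16 without the 4. For transgenic vehicle over wildtype without the 4 it was also at 0.18 (SE 0.0595). Its paralog Kat2a was at -0.16 (SE 0.0758) and -0.05.

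Enzymes that write methylation on histone H3 lysine 4 were negative in 10 of 15, and in 6 of 15 without the 4 libraries. Kmt2b, a methyltransferase, was at -0.25 (SE 0.137, and -0.04 without the 4) and the scaffold gene Men1 at -0.16 (SE 0.0765, and -0.04 without the 4), while the small core subunit Dpy30 was at 0.17 (SE 0.0901, and 0.03 without the 4). For Kmt2b the 3 vorinostat libraries of high mitochondrial share averaged 47.3 CPM and the other 6 averaged 97.2 CPM, against 57.4 CPM in wildtype 2 and 100.2 CPM in the other wildtype libraries. The demethylase gene Kdm5a was at 0.11 (SE 0.0537, and 0.07 without the 4).

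Unfolded protein response genes, which fold, modify or destroy proteins of the endoplasmic reticulum, were positive in 19 of 29 with a median of 0.03, and 5 were at an unadjusted p under 0.05 and higher, against 0 lower (6.87% and 5.71% of all genes). When the 4 libraries were left out the count was 20 of 29, with 3 higher and 0 lower (1.94% and 2.23% of all genes). Dnajc3, a co-chaperone that restrains the kinase PERK, was at 58.0, 66.1 and 76.0 CPM with vorinostat and 53.1, 57.6 and 65.0 CPM in wildtype, at 0.18 (SE 0.0534), with all 9 vorinostat libraries above the wildtype median. The disulfide isomerase gene Pdia4 was at 0.18 (SE 0.0586), the glutathione-degrading enzyme gene Chac1 at -0.15 (SE 0.081) and the ubiquitin ligase gene Syvn1 at -0.19 (SE 0.111). With the 4 left out they were at 0.11 for Dnajc3, 0.13 for Pdia4, -0.10 for Chac1 and -0.02 for Syvn1. For transgenic vehicle over wildtype the list median was 0.03 in all libraries and 0.05 without the 4, where 21 of 29 members were positive. There Dnajc3 was at 0.11 (SE 0.0443), Pdia4 at 0.11 (SE 0.0508), Chac1 at -0.05 and Syvn1 at -0.02.

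Cytosolic heat shock genes were positive in 13 of 17 with a median of 0.07, and in 11 of 17 with a median of 0.03 without the 4 libraries. The smallest p on the positive side was that of the co-chaperone Dnaja1 at 0.18 (SE 0.0707, and 0.07 without the 4) and, on the negative side, Bag3 at -0.22 (SE 0.101, and -0.12 without the 4). Oxidative stress genes were positive in 12 of 17, and in 6 of 17 without the 4 libraries. The cystine transporter gene Slc7a11 was at 0.22 (SE 0.0975, and 0.20 without the 4), and Keap1, the inhibitor of Nrf2, at -0.10 (SE 0.0469, and -0.03 without the 4). Hypoxia genes were positive in 10 of 16 with a median of 0.04, Adm being the largest difference. The positive member with the next smallest p was P4ha1, a collagen prolyl hydroxylase gene, at 0.14 (SE 0.0587, and 0.07 without the 4). Of these 16, 8 were positive without the 4 libraries, with a median of 0.0032.

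Immediate early genes, which neuronal activity induces within minutes, were positive in 15 of 26 with a median of 0.02, and in 23 of 26 without the 4 libraries, with a median of 0.15. For transgenic vehicle against wildtype the median was 0.13 both with and without the 4. Egr2 was at 1.20, 1.79 and 9.52 CPM with vorinostat and 0.926, 1.88 and 3.20 CPM in wildtype, so its log2 fold change of 0.73 (SE 0.38) rests on 1 library at 9.52 CPM, and without single libraries it ran down to 0.23. The scaffold gene Homer1 was at 0.18 (SE 0.0897, and 0.20 without the 4) and Jund, an AP-1 subunit, at -0.19 (SE 0.0826, and -0.13 without the 4). Glucocorticoid targets were positive in 8 of 15 with a median of 0.0014, with the receptor itself, Nr3c1, at 0.13 (SE 0.0609, and 0.10 without the 4). Among adrenergic receptors Adra2c, which inhibits noradrenaline release, was at 19.3, 25.98 and 29.2 CPM with vorinostat and 25.4, 29.7 and 35.9 CPM in wildtype (-0.22, SE 0.0756, and -0.17 without the 4). All 9 vorinostat libraries lay below the wildtype median of Adra2c.

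In 3 synaptic lists most members were lower with vorinostat in all libraries, and fewer were without the 4. Presynaptic release genes were negative in 20 of 26, with 6 at an unadjusted p under 0.05 and lower (5.71% of all genes), and in 12 of 26 without the 4 libraries, with 1 such gene (2.23% of all genes). Vamp2, the synaptic vesicle SNARE, was at 1009.6 ± 120.1 CPM with vorinostat and 1142 ± 71.8 CPM in wildtype (-0.18, SE 0.058), with all 9 vorinostat libraries below the wildtype median, and at -0.09 without the 4. The vesicular glutamate transporter gene Slc17a7 was at 1093 ± 187 CPM with vorinostat and 1267 ± 127 CPM in wildtype (-0.21, SE 0.0816, and -0.10 without the 4), while the calcium sensor gene Syt4 was at 0.18 (SE 0.0752, and 0.12 without the 4). Glutamate receptor genes were negative in 18 of 27 and without the 4 in 11 of 27. Among them the kainate receptor gene Grik1 was at 0.16 (SE 0.0545) and 0.18 without the 4, the NMDA subunit gene Grin2c at -0.22 (SE 0.0853, and -0.12 without the 4) and Cacng3 at -0.16 (SE 0.0632, and -0.11 without the 4). Postsynaptic scaffold and adhesion genes were negative in 17 of 23 and without the 4 in 11 of 23, with Lrrtm2 at 0.22 (SE 0.0808, and 0.16 without the 4) and Dlgap3 at -0.22 (SE 0.0863, and -0.12 without the 4).

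GABA receptor genes were positive in 11 of 14 with a median of 0.07, and in 9 of 14 with a median of 0.04 without the 4. In all libraries 4 members were at an unadjusted p under 0.05 and higher, and 0 lower (6.87% and 5.71% of all genes). Without the 4 there were 0 of either. The negative members include the GABA-B subunit gene Gabbr2 at -0.20 (SE 0.0986, and -0.03 without the 4). Potassium channel genes were negative in 21 of 29, with Kcnh7 at 0.22 (SE 0.0994, and 0.24 without the 4). Sodium, calcium and HCN channel genes were negative in 18 of 25, with Hcn2 at -0.21 (SE 0.0808, and -0.08 without the 4) and Scn1a at 0.14 (SE 0.0848, and 0.18 without the 4). Kcnh7 and Scn1a reversed sign with surrogate variables. With the 4 left out 11 of 29 potassium and 9 of 25 other channel genes were negative. CaM kinase genes were negative in 10 of 11, and in 9 of 11 without the 4. Camkv, a kinase-like synaptic protein gene, was at -0.17 (SE 0.0819, and -0.08 without the 4), and Camk2d, the endogenous gene of the transgenic kinase, at 71.4 ± 22.9 CPM with vorinostat and 78.2 ± 35.3 CPM in wildtype (-0.13, SE 0.228, and -0.12 without the 4), a value that was 0.0084 without wildtype 1.

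Lists of energy, protein synthesis and protein turnover genes had medians of opposite sign with and without the 4 libraries. Of the nuclear genes of oxidative phosphorylation 36 of 46 were positive, with a median of 0.07, in all libraries, and 10 of 46, with a median of -0.03, without the 4. Ribosomal protein genes were positive in 37 of 43 (median 0.09) and in 6 of 43 (median -0.08), proteasome genes in 24 of 29 (0.09) and in 8 of 29 (-0.02), and mitochondrially encoded genes in 7 of 7 (0.21) and in 1 of 7 (-0.03). For each of these 4 lists the mean log2 CPM lay above the wildtype mean in 3 of the 9 vorinostat libraries. Uqcrb, a complex III subunit gene, was at 0.23 (SE 0.0938) and 0.06 without the 4, and Cyc1, cytochrome c1, at -0.10 (SE 0.0436) and -0.08. For the proteasome ATPase gene Psmc6 the means were 100.5 CPM in the 3 vorinostat libraries of high mitochondrial share, 64.7 CPM in the other 6, 92.7 CPM in wildtype 2 and 61.4 CPM in the other 9 wildtype libraries. Its log2 fold change was 0.25 (SE 0.0999) in all libraries and 0.07 without the 4. The ribosomal genes Rpl23 and Rpl28 were at 0.22 (SE 0.111) and -0.15 (SE 0.0843, and -0.16 without the 4), the proteasome lid gene Psmd3 at -0.12 (SE 0.0548, and -0.03 without the 4), mt-Co1 at 0.21 (SE 0.13, and -0.02 without the 4) and mt-Nd5 at 0.19 (SE 0.107, and -0.02 without the 4). With the mitochondrial share as a covariate the medians were -0.02 for nuclear oxidative phosphorylation, -0.05 for ribosomal proteins, -0.0083 for the proteasome and -0.02 for mitochondrially encoded genes.

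Splicing genes had 7 higher and 3 lower members of 35 at an unadjusted p under 0.05 (6.87% and 5.71% of all genes), and 0 of either without the 4 libraries. The kinases Clk4 and Clk1, which phosphorylate splicing factors, were at 0.24 (SE 0.0723) and 0.26 (SE 0.0928), and at 0.08 and 0.06 without the 4, while the neuronal splicing factor Rbfox3 was at -0.16 (SE 0.068) and -0.05. Cholesterol synthesis genes were positive in 11 of 21, with Sc5d at 0.18 (SE 0.0666) and Cyp51 at 0.12 (SE 0.0538), and at 0.09 and 0.03 without the 4.

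**Figure D4:**
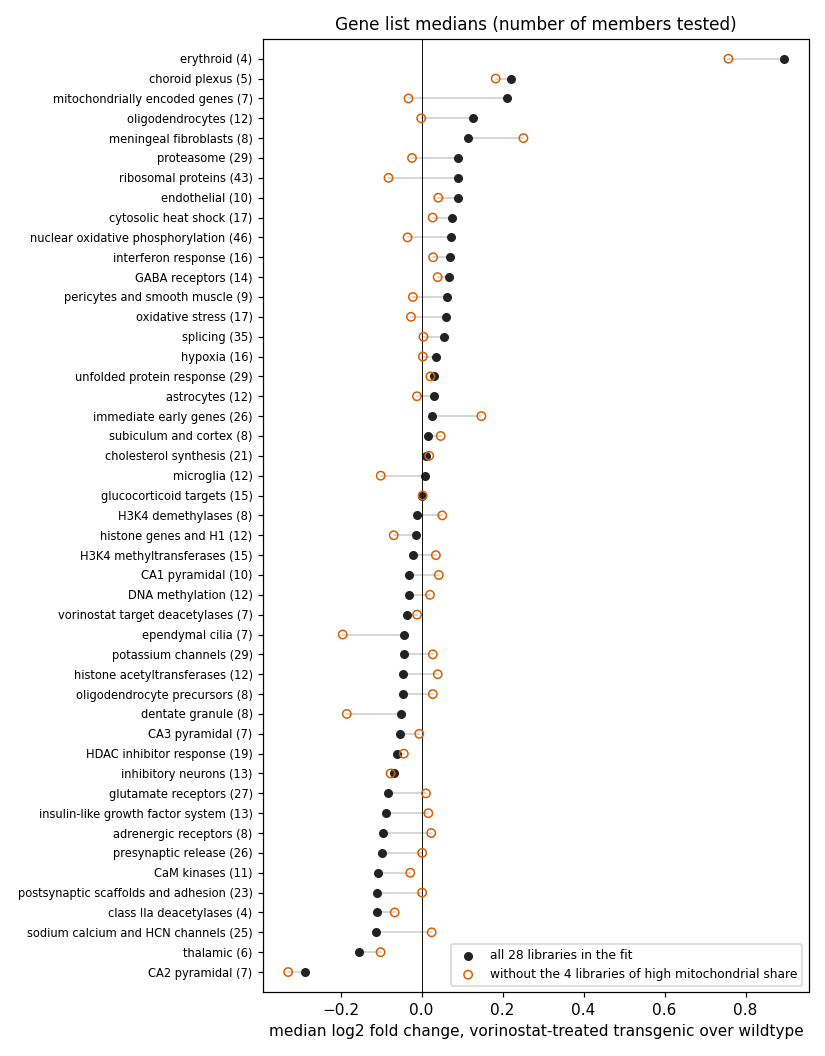
Median log2 fold change of vorinostat-treated transgenic over wildtype libraries for 47 gene lists, with the number of members tested in brackets; filled points use all 28 libraries in the fit and open points leave out the 4 libraries of high mitochondrial share. The erythroid list (0.89 and 0.76) and the CA2 list (-0.29 and -0.33) lie farthest from 0 under both, while mitochondrial, ribosomal, proteasome and oxidative phosphorylation medians lie on opposite sides of 0.

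The 10 genes with the smallest p between transgenic vehicle and wildtype libraries show how far untreated differences were also present under vorinostat. Both contrasts use the same wildtype libraries, so their values are not independent, and no gene passed in either. Bcl6b, a transcriptional repressor, was at 1.43 ± 0.432 CPM with vorinostat, 1.70 ± 0.277 CPM in transgenic vehicle and 1.18 ± 0.262 CPM in wildtype libraries, a log2 fold change of 0.28 for vorinostat and of 0.52 for transgenic vehicle over wildtype. The adhesion receptor gene Adgrg6 was at 0.31 with vorinostat and 0.49 with vehicle, the repressor gene Tgif1 at 0.25 and 0.40, and Pawr, a regulator of apoptosis, at 0.31 and 0.45. The anion transporter Slc26a8 was at -0.16 and -0.24 and Slc26a4 at -0.13 and -0.23. For these 6 genes the vorinostat value lay on the same side of wildtype as the vehicle value and nearer to 0.

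For the other 4 the vorinostat libraries were close to wildtype or beyond it. The tubulin-binding gene Tppp3 was at 0.03 with vorinostat and 0.22 with vehicle, and Hhip, which binds hedgehog ligands, at 0.10 and 0.50. Kcnk2, a leak potassium channel gene, was at -0.0089 with vorinostat and 0.15 with vehicle. Hells, a chromatin-remodelling helicase gene, was at 3.22, 3.96 and 5.36 CPM with vorinostat, 2.87, 3.46 and 3.78 CPM in transgenic vehicle and 3.70, 3.86 and 4.67 CPM in wildtype libraries. Its log2 fold change over wildtype was 0.10 with vorinostat and -0.27 with vehicle, and the difference between both transgenic groups was 0.36 (SE 0.0857). The vorinostat value of Hells was -0.02 without the 4 libraries. These genes were chosen as extremes of the vehicle contrast, and that choice alone favours values nearer to 0 in another group.

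Prdm8, Crb2 and Igfbp4 had been chosen with earlier results of these data known, each had an edgeR adjusted p of 0.384 against wildtype, and their values in the 3 groups are a description. Prdm8, a neuronal transcriptional regulator gene (ENSMUSG00000035456, chr5:98167198-98188991, plus strand), was at 6.66, 8.47 and 13.5 CPM with vorinostat, 10.1, 14.7 and 22.9 CPM in transgenic vehicle and 9.51, 11.9 and 19.7 CPM in wildtype libraries. Its log2 fold change over wildtype was -0.45 (SE 0.151) with vorinostat and 0.21 (SE 0.147) with vehicle, and -0.49 with vorinostat without the 4 libraries. Crb2, a cell polarity gene (ENSMUSG00000035403, chr2:37776249-37799103, plus strand), was at -0.38 (SE 0.103) with vorinostat and 0.08 (SE 0.1) with vehicle, with all 9 vorinostat libraries below the wildtype median, and at -0.26 without the 4. Igfbp4, which binds insulin-like growth factors (ENSMUSG00000017493, chr11:99041244-99054392, plus strand), was at 77.9 ± 11.4 CPM with vorinostat, 103 ± 5.98 CPM with vehicle and 93.7 ± 13.6 CPM in wildtype. That is -0.27 (SE 0.0782) from wildtype with vorinostat and 0.13 (SE 0.0778) with vehicle, and -0.17 with vorinostat without the 4.

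**Figure D5:**
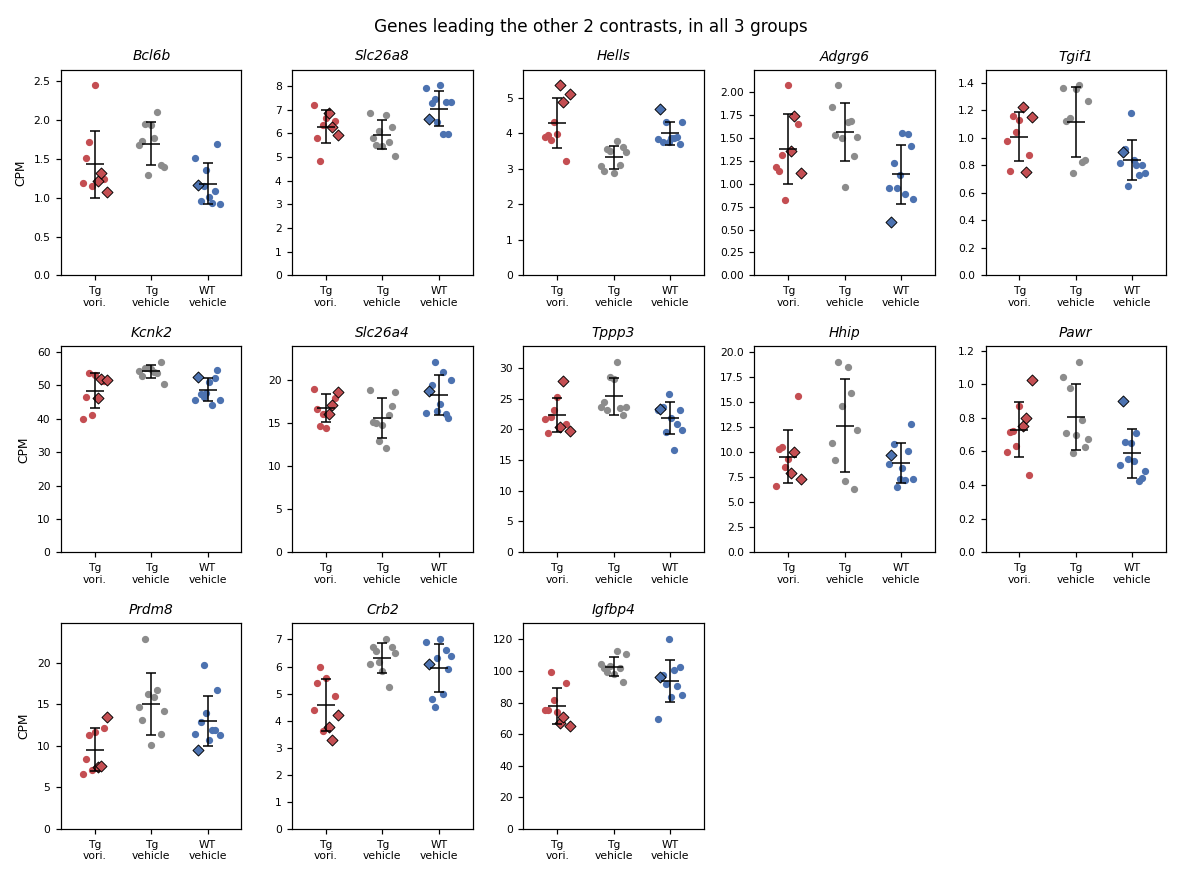
Level (CPM) of the 10 genes with the smallest p between transgenic vehicle and wildtype libraries, and of Prdm8, Crb2 and Igfbp4, in transgenic vorinostat (left), transgenic vehicle (middle) and wildtype vehicle (right) libraries, with each library as a point, the mean and SD as lines, and outlined diamonds for the 4 libraries of high mitochondrial share. Hells has a median of 3.96 CPM with vorinostat, 3.46 CPM with vehicle and 3.86 CPM in wildtype.

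The authors also deposited 14 coexpression modules, groups of genes with like profiles across the study's libraries. They were built from these libraries, so their directions are given as a description. The purple module, which holds Adm and Clk1, was positive in 93.5% of 2519 tested genes with a median log2 fold change of 0.12, and 26.8% of its genes were at an unadjusted p under 0.05, against 4.28% without the 4 libraries. The green module, which holds Kmt2b and Vamp2, was positive in 9.39% of 2781 tested genes with a median of -0.12, and 18.5% of its genes were at such a p, against 4.67% without the 4. The royalblue and lightcyan modules had medians of -0.10 and 0.10, with 30.5% and 19.6% of genes at such a p, and 5.52% and 5.11% without the 4. Alas2 and the hemoglobin genes were in the black module, whose median was 0.08 with all libraries and -0.01 without the 4.

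In the authors' deposited table of adjusted expression values, limma called 2645 of 18014 genes between vorinostat-treated transgenic and wildtype samples, 1878 higher and 767 lower, and 6192 had an unadjusted p under 0.05. No source used here gives the terms of the mixed linear model behind that table, or whether the groups were among them. In that table the vorinostat minus wildtype difference, in its own log units, was 0.39 for Adm, 0.64 for Alas2, 0.71 for Hbb-bt, -0.29 for Crb2, -0.34 for Igfbp4 and -0.18 for Necab2, the same sign as from the counts. The limma adjusted p of these 6 differences ran from 0.000195 for Adm to 0.0342 for Necab2.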

How the data were processed

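For every library the authors deposited a file of raw gene counts, whole numbers that were not normalized. The submitters' processing notes name mm10, STAR 2.5.2b, Subread 1.5.1 with its featureCounts, and FastQC 0.11.5. No annotation release, strand setting or rule for multiply matching reads was given in the sources used here. Polyadenylated RNA was read as 50 bp single ends from TruSeq v2 libraries, per the labels' protocols, so strand is not kept. The deposited adjusted expression score came from a mixed linear model whose log base and terms were not given, and 14 deposited module names were used as labels.

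Of 48709 gene identifiers 48349 (99.3%) were matched to a symbol. The 117 within-group pairs of libraries included 0 identical files and all differed beyond sampling noise, so no libraries were merged. Counts were tested with edgeR 4.0.16 in R 4.3.3 (quasi-likelihood, robust, TMM, minimum count 10, minimum total 15) in 1 fit of 28 libraries and 3 groups, which left 17009 genes, with Benjamini-Hochberg adjustment and a threshold of 0.05. CPM were scaled by TMM except for summed hemoglobin and Xist. Standard errors come from the fold change and its F statistic. The procedure was tested on simulated data. Alternatives used DESeq2 1.42.0, limma 3.58.1 and sva 3.50.0. Coordinates are from GENCODE on GRCm38. All 3 promoters looked for were matched in RefSeq. Samples of the same number were checked for pairing, and the numbers were not treated as pairs.

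Members and the 48 gene lists were chosen with earlier results of these data known. Named genes were the 10 with the smallest p here and between transgenic vehicle and wildtype libraries (predicted models left out), up to 2 per sign of each list, the deacetylases, and genes known from earlier results, from which the text gives a selection, and a few are not reported here. Lists are described by counts and medians, without a test. Intervals on single counts were not needed, and depth limits low genes such as Adm and Alas2 most.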

Additional observations from a re-analysis of the deposited data

Results flagged for a closer look

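Of 214 groups of values examined for a library far from the others of its group, 35 had one. The cutoff flags about 1 in 20 groups of normally distributed values. These groups share libraries and were not checked for that shape, so the rate is no chance level for them. In 21 of the 35 the library was wildtype 2, 1 of the 4 with a high mitochondrial share.

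Wildtype 2 stood above the other wildtype libraries in its mitochondrial share of counts (6.41%), in summed hemoglobin (101 CPM) and in Hbb-bs (59.5 CPM), Hbb-bt (12.03 CPM), Hba-a1 (29.7 CPM) and Alas2 (4.80 CPM). It was also the highest wildtype library in Slc35g2 (20.7 CPM), Hdac8 (13.1 CPM), Dpy30 (19.6 CPM), Dnaja1 (101 CPM), Uqcrb (20.8 CPM), mt-Co1 (15394 CPM), Rpl23 (35.5 CPM) and Psmc6 (92.7 CPM). It was the lowest in Kat2a (62.4 CPM), Kmt2b (57.4 CPM), Men1 (49.3 CPM), Syvn1 (37.1 CPM), Gabbr2 (253 CPM), Rbfox3 (186 CPM) and Slc32a1 (51.5 CPM).

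Wildtype 5 had the highest total (33191857 counts), the highest Tgif1 (1.18 CPM) and Keap1 (65.9 CPM), and the lowest Kdm5a (48.3 CPM). Wildtype 1 was high in Pcp4 (20.9 CPM) and Col3a1 (3.28 CPM), wildtype 9 in Map3k15 (5.07 CPM), and wildtype 7 was low in Gjb6 (38.8 CPM).

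Among vorinostat libraries, vorinostat 8 was high in Hhip (15.6 CPM), Amigo2 (15.7 CPM) and Map3k15 (4.51 CPM). Vorinostat 5 was high in Bcl6b (2.45 CPM) and Col3a1 (4.68 CPM), and vorinostat 4 in Egr2 (9.52 CPM).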

How the results depend on the processing

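The count of 0 genes called was kept under the other fits, except the following. With the title number as a replicate block 1 gene passed, Zfp26 (0.32, edgeR adjusted p = 0.0489, named after its value was seen), and with the description number 0 did. Across 9 numbers shared by both groups the deviations of same-numbered libraries correlated at -0.213 to 0.221, 1 of 9 over 0.1 and 0 best with their own number, so the block is no test of pairing. In the authors' deposited values 2645 genes passed and 6192 had an unadjusted p under 0.05. Without single libraries 0 to 3 genes passed and 1066 to 3765 had an unadjusted p under 0.05, fewest without vorinostat 7 and most without wildtype 2. That count was 1422 with only the 19 libraries of both groups, 721 without the 4 libraries of high mitochondrial share, 1253 with the mitochondrial share as a covariate and 1067 with surrogate variables. The cause of these shifts was not tested.

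The hemoglobin difference, with p = 0.0513 in all libraries, was 15.9 CPM without the 4 libraries (exact permutation p = 0.0002). It was 0.94 on a log2 scale (0.00933) and 0.72 on that scale without the 4 (0.0004, chosen after seeing the data). Without single libraries it ran from 19.4 to 36.2 CPM, with p from 4.11e-05 to 0.109, past the threshold without wildtype 2 or vorinostat 1, 2, 3, 5 or 8. For transgenic vehicle against wildtype it was 7.74 CPM without the 4 (exact permutation p = 0.0352), and for vorinostat against transgenic vehicle it was 8.15 CPM without the 4 (0.0771) and 0.36 on the log2 scale (0.0861), all chosen after seeing the data. The difference in library totals was 280657 counts without the 4 and -1162580 to 328420 without single libraries, positive without wildtype 5.

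Of 1552 log2 fold changes of the 104 genes under alternatives other than the deposited values and single left-out libraries, 1530 kept their sign. Without the 4 libraries Hells (-0.021), Hdac1 (-0.026), mt-Co1 (-0.019) and mt-Nd5 (-0.016) reversed. With the mitochondrial share as a covariate Hdac1 (-0.00051) and mt-Co1 (-0.00020) did. With surrogate variables Hells (-0.045), Hhip (-0.057), Hdac1 (-0.025), Hdac2 (-0.016), Hdac3 (0.0057), Hdac6 (0.023), Hdac10 (0.026), Hdac11 (0.0033), Hdac5 (0.010), Kcnh7 (-0.012), Scn1a (-0.017), mt-Co1 (-0.016), mt-Nd5 (-0.049) and Ermn (-0.013) did. In the authors' deposited values Kcnk2 (0.018), Camk2d (0.30), Hdac1 (-0.0024), Hdac3 (0.026) and Pcp4 (0.12) did. Kcnk2 was 0.0065 with no scaling factor and 0.0035 with the description number as a replicate block. Without single libraries Kcnk2 ran from -0.033 to 0.019, Tppp3 from -0.019 to 0.061, Hhip from -0.021 to 0.17, Camk2d from -0.25 to 0.0084 and Pcp4 from -0.17 to 0.015. Of 752 list medians under alternatives 19 moved beyond the wildtype spread. Depth limits genes near 1 CPM, such as Adm, Tgif1 and Pawr.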

Other observations

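Among the libraries of lower mitochondrial share, the genes with the smallest p (predicted models left out) were Alas2, Hbb-bt, Hbb-bs, Il1b, Adm, Gmds, Necab2, Ctla2a, Hba-a1 and Slc35g2, and none passed the threshold. Il1b, the interleukin-1 beta gene, was at -1.47 on the log2 scale without the 4 and at -0.66 (SE 0.326) with all libraries, from levels of 0.275 ± 0.226 CPM with vorinostat (SD, n = 9) and 0.429 ± 0.167 CPM in wildtype (SD, n = 10). Il1b was named after its values were seen, and its gene overlaps Il1bos.

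Interferon response genes were positive in 11 of 16 with a median log2 fold change of 0.07, and in 10 of 16 without the 4 libraries. Genes of the insulin-like growth factor system were negative in 11 of 13 with a median of -0.09, and in 4 of 13 without the 4. Meningeal fibroblast markers were positive in 6 of 8 with a median of 0.12, and in 7 of 8 with a median of 0.25 without the 4. Ependymal markers were negative in 5 of 7 and in 6 of 7, with medians of -0.04 and -0.19. Histone H3 lysine demethylases, a list that holds Kdm2a and the Y-linked Kdm5d, were positive in 3 of 8. Without the 4 they were positive in 8 of 8, with a median of 0.05.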
